A study of Mus musculus with 46 samples.

Results

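The genes described here are 10 hair follicle genes of the mouse: 7 of the inner root sheath (Krt25, Krt27, Krt28, Krt71, Krt72, Krt73 and Tchh) and 3 of the hair shaft (Krt35, S100a3 and Prr9). They are 10 of the 46264 gene symbols in the deposited table. They were chosen by name with earlier results of these data known, and they are described in the libraries selected on measured keratin levels: in 6 of 46 libraries, Krt5 and Krt14, keratins of basal epidermal cells, summed to over 100 CPM (counts scaled to a common library total). Those levels ran from 309.9 to 1575 CPM in the 6 libraries and reached at most 0.427 CPM in the other 40, so no library lay near the limit. What chose the genes and the libraries is given as a description. Fits by label are printed with it, and nothing is read from the calls of members.

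The series measured RNA from mice modelling mucous membrane pemphigoid, in which autoantibodies against a laminin of the epithelial basement membrane cause blisters. Mice received intravenous immunoglobulin (IVIG, pooled antibodies given into a vein) or phosphate-buffered saline (PBS), and blood, neutrophils, monocytes and skin were sampled. Further libraries, named Ics here, were titled unstimulated or stimulated with Ics for different times, and the titles do not spell out Ics. They are among the libraries without skin keratins. Skin had 3 libraries of each condition by label. Strain, age, sex, body site and hair removal are not given in the sources used here, nor is it said whether libraries come from separate mice. The titles carry a number that may stand for the animal, and it differs between all libraries labelled skin. The spread that enters each p-value is therefore that of the libraries, which may be technical. The extraction protocol describes neutrophils, monocytes and blood, and how skin was handled is not given there.

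Libraries are named by their deposited tissue, condition and number. The 6 libraries with skin keratins were labelled Skin_IVIG 1, Skin_IVIG 2, Skin_PBS 2, Skin_PBS 3, Blood_PBS 2 and Blood_IVIG 3, so 2 of them carried a blood label. The other libraries labelled skin, Skin_PBS 1 and Skin_IVIG 3, held 96.8% and 96.2% haemoglobin transcripts and 0 CPM of Krt5 and Krt14. All 4 skin-labelled libraries of the class were titled with series number 5 and both blood-labelled ones with series number 3, and the labels do not say what a series is. Conditions follow the condition field and the titles. The treatment field differs from them in several libraries: it gives PBS for Skin_IVIG 1 and Blood_PBS 2, IVIG for Skin_IVIG 2, Skin_PBS 2 and Skin_PBS 3, and a time point for Blood_IVIG 3. The 6 libraries held 29202700 to 38479431 estimated counts, so 3 counts, the floor used here, stood for 0.078 to 0.103 CPM. Col1a1, the main dermal collagen but not particular to skin, was present in all 6, at 3896 to 12110 CPM. Of the listed keratins of the oral lining, Krt13 and Krt76 reached at most 0.06 and 0.026 CPM. Krt4 and Krt78 of the same list were present in all 6, at 1.1 to 2.16 and 4.15 to 24.2 CPM.

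A hair follicle cycles between growth (anagen), regression (catagen) and rest (telogen). During growth, matrix cells at the base of the follicle divide and differentiate into the shaft and, around it, the inner root sheath, a rigid tube that moulds the shaft and is later shed. Keratins work as pairs of a type I and a type II chain: Krt25, Krt27 and Krt28 are type I and Krt71, Krt72 and Krt73 type II keratins of the sheath, and Krt35 is a type I keratin of the shaft. Tchh codes trichohyalin, a protein that is crosslinked to the sheath keratins. S100a3 codes a calcium-binding protein of the hair cuticle, and Prr9 a proline-rich protein from the gene cluster of epidermal differentiation.

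The sheath keratin genes lie in 2 clusters, the type I genes on chromosome 11 (Krt25 at 99315516 to 99322951, Krt27 at 99345565 to 99351104, Krt28 at 99364872 to 99374903) and the type II genes on chromosome 15 (Krt71 at 101733949 to 101743109, Krt72 at 101776172 to 101786460, Krt73 at 101793308 to 101802346). Krt35 lies further along chromosome 11, at 100092193 to 100096241. Tchh (93442330 to 93449077), S100a3 (90560578 to 90602702) and Prr9 (92122204 to 92123947) lie on chromosome 3. Positions are from GENCODE vM21 on GRCm38. Tchh overlaps the antisense gene Gm37245, S100a3 overlaps S100a2 and Gm42674 on its own strand and the antisense gene Gm23464, and Prr9 overlaps AC138676.1 on its own strand. The other 7 members overlap no annotated gene. The library protocol names no strand marking, so reads shared with these genes cannot be told apart.

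Because these genes varied together, the 100 bases before their start sites are shown for the 8 members with a single start site in the RefSeq promoter table (build GRCm38.p6), from 5′ to 3′ on the gene's strand. Capitals mark the letters TATAAA, the core of a TATA box.
Krt25: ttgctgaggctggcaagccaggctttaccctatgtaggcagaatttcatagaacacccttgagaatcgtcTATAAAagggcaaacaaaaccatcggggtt
Krt27: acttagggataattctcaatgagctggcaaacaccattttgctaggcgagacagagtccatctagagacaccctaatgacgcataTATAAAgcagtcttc
Krt28: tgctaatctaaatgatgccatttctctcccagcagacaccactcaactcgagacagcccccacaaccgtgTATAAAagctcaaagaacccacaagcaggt
Krt71: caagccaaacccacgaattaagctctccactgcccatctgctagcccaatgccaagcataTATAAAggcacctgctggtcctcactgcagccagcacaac
Krt73: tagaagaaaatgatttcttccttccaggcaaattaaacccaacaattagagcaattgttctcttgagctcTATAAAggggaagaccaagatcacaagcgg
Prr9: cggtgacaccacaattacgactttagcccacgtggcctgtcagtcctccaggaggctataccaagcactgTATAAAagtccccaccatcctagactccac
Krt72: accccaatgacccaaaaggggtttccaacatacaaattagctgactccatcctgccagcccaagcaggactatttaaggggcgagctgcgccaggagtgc
Tchh: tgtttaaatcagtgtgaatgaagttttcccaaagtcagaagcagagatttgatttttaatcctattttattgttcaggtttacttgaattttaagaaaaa

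The windows lie at chr11:99322952-99323051 (Krt25), chr11:99351119-99351218 (Krt27), chr11:99374904-99375003 (Krt28), chr15:101743098-101743197 (Krt71), chr15:101802361-101802460 (Krt73), chr3:92123948-92124047 (Prr9) and chr15:101786521-101786620 (Krt72) on the minus strand, and at chr3:93442230-93442329 (Tchh) on the plus strand. The letters TATAAA stood within 50 bases of the start site, on the gene's strand, in 6 of the 8, beginning 30 bases before it in Krt25, Krt28, Krt73 and Prr9, 40 bases in Krt71 and 15 bases in Krt27. Of 32851 promoter entries, 2.63% had them there. The RefSeq start sites of Krt27, Krt71, Krt72 and Krt73 differ from the GENCODE gene ends given above, so these distances depend on the annotation. Over the 250 bases before the start and on both strands, 3 further motifs were searched, chosen after the sequences had been seen. AGATAA, a core of GATA factors, was found in 5 of the 8 and in 9.99% of entries. TAATTA, a homeobox core, was found in 4 of the 8 and in 4.84% of entries. CTTTGA or CTTTGT, cores of LEF1 and TCF factors, were found in 3 of the 8 and in 27.6% of entries. Motifs can share bases, since AGATAA ends in the letters that begin TAATTA, and a match describes the letters only.

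The 7 sheath genes were high in Skin_IVIG 1 and Skin_IVIG 2 and far lower in the other 4 libraries, where Tchh and Krt28 kept a measurable level in each and the other 5 had 0 to 7 counts. Krt71, the most abundant sheath keratin, was at 142.6 CPM in Skin_IVIG 1 and 135.7 CPM in Skin_IVIG 2. In Skin_PBS 2, Blood_PBS 2, Skin_PBS 3 and Blood_IVIG 3 it had 0, 3, 2 and 7 estimated counts, which is 0 to 0.22 CPM. Krt25 was at 98.95 and 85.33 CPM in the same 2 libraries and had 0, 0, 3 and 4 counts in the others.

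Krt27 was at 58.1 CPM in Skin_IVIG 1 and 60.8 CPM in Skin_IVIG 2, with 4, 0, 0 and 1 counts in Skin_PBS 2, Blood_PBS 2, Skin_PBS 3 and Blood_IVIG 3. Krt73 was at 35.8 and 32.6 CPM, with 4, 0, 0 and 5 counts. These 4 keratins were therefore present in 2 libraries and at or close to the floor in the rest. Krt28 was lower, at 22.5 and 18.7 CPM, and kept a measurable level elsewhere, with 0.44 CPM in Skin_PBS 2, 0.55 in Blood_PBS 2, 0.3 in Skin_PBS 3 and 0.16 in Blood_IVIG 3. Its lower high library stood 34.3-fold above the highest of those 4.

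Krt72 was the least abundant member and the one that differed most between the 2 high libraries, with 2.46 CPM in Skin_IVIG 1 and 6.37 CPM in Skin_IVIG 2. The other 4 libraries held 1 count of it in all. Tchh, the trichohyalin gene, was the highest member by CPM, at 171.8 in Skin_IVIG 1 and 205.9 in Skin_IVIG 2. It was also the only member at 1 CPM or more in the other 4, with 2.58 CPM in Skin_PBS 2, 2.34 in Blood_PBS 2, 2.13 in Skin_PBS 3 and 1.64 in Blood_IVIG 3. The lower high value was 66.6-fold above the highest of these.

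The 3 shaft genes had the same pattern. Krt35 was at 39.2 CPM in Skin_IVIG 1 and 35.5 CPM in Skin_IVIG 2, with 0, 4, 5 and 9 counts in Skin_PBS 2, Blood_PBS 2, Skin_PBS 3 and Blood_IVIG 3. S100a3 was at 33.6 and 28.6 CPM against 0.74, 0.91, 0.18 and 0.38 CPM, a gap of 31.5-fold between the lower high library and the highest low one. Prr9 was at 30.3 and 41.4 CPM against 0.37, 0.36, 0.69 and 0.13 CPM, a gap of 43.8-fold. No member overlapped between the 2 libraries and the other 4.

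**Figure D1:**
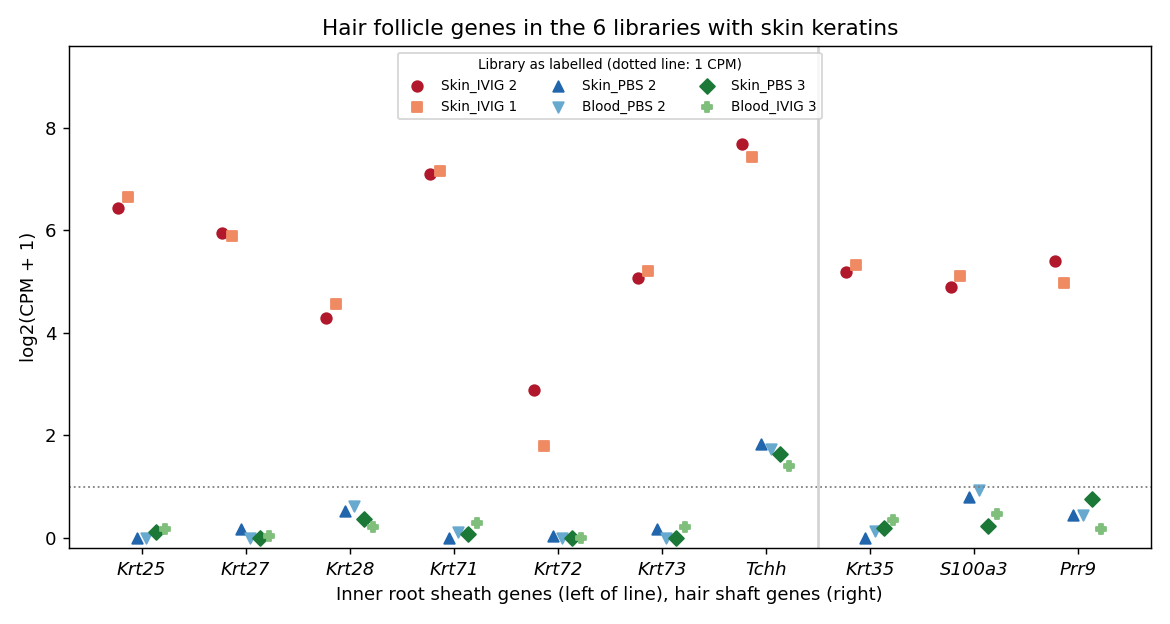
Level of each hair follicle gene, as log2(CPM + 1), in the 6 libraries with skin keratins; each point is 1 library as labelled and the dotted line marks 1 CPM. All 10 genes lie above the line in Skin_IVIG 1 and Skin_IVIG 2, and in the other 4 libraries Tchh alone does.

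Counted as on at 1 CPM or more, all 10 members were on in both Skin_IVIG 1 and Skin_IVIG 2, and 1 of 10 was on in each of the other 4 libraries. Among the 15993 genes with at least 1 CPM in any of the 6 libraries, 13.2% were higher in both of these libraries than in all 4 others, as all 10 members were. Only 0.875% were on in both and off in all 4 others, as 9 members were. A gap of more than 10-fold between the lower of the 2 and the highest of the 4 was found for 0.513%, and for all 10 members. In the opposite direction, 2.91% of genes and 0 members were lower in both. The libraries are set apart here by the members themselves, so nothing is read from these shares.

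The sum of the 10 members was 635.4 CPM in Skin_IVIG 1 and 651 CPM in Skin_IVIG 2, against 4.42 in Skin_PBS 2, 4.34 in Blood_PBS 2, 3.61 in Skin_PBS 3 and 3.11 in Blood_IVIG 3. The highest sum was 209-fold the lowest. Between the 2 high libraries, 8 members had a ratio of Skin_IVIG 1 to Skin_IVIG 2 between 0.835 (Tchh) and 1.2 (Krt28), while Prr9 had 0.732 and Krt72 0.387. Over the 6 libraries the pairwise Pearson correlation of log2(CPM + 1) ran from 0.947 to 1.00 over the 45 pairs of members, with a median of 0.995. With 2 libraries high and 4 low, any pair of genes with this split correlates closely, and the libraries share their depth and their content of other tissue.

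The members did not follow the amount of basal keratin. Krt5 and Krt14 together were at 606.3 CPM in Skin_IVIG 1 and 1575 CPM in Skin_IVIG 2, and at 1264 in Skin_PBS 2, 940.4 in Blood_PBS 2, 331.3 in Blood_IVIG 3 and 309.9 in Skin_PBS 3. Skin_PBS 2 and Blood_PBS 2 thus held more basal keratin than Skin_IVIG 1 and far fewer hair follicle transcripts. Per 100 CPM of both keratins, the members summed to 104.8 CPM in Skin_IVIG 1 and 41.3 in Skin_IVIG 2, against 0.35 in Skin_PBS 2, 0.462 in Blood_PBS 2, 0.94 in Blood_IVIG 3 and 1.16 in Skin_PBS 3.

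**Figure D2:**
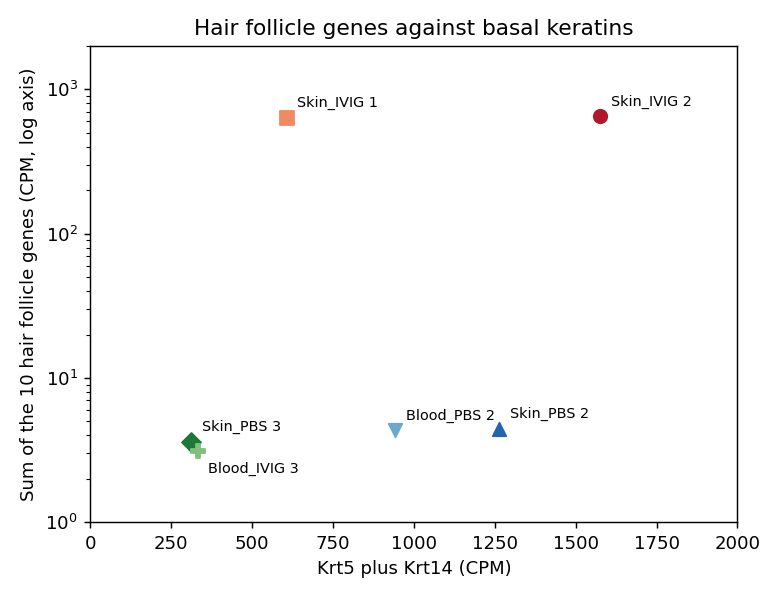
Sum of the 10 hair follicle genes (CPM, log axis) against the sum of Krt5 and Krt14 (CPM) in the 6 libraries with skin keratins, 1 point per library. Skin_IVIG 1 and Skin_IVIG 2 lie at 635.4 and 651 CPM and the other 4 libraries between 3.11 and 4.42 CPM, over the whole range of keratin levels.

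In bulk RNA, more cells of the sheath and shaft and more RNA per such cell cannot be told apart. To order the members by level, CPM was divided by the length of all exons of the gene. On this per-kilobase scale Krt71 was highest, at 62.1 to 65.2 CPM per kilobase in the 2 high libraries, followed by Krt25 (42.9 to 49.8), Krt27 (37.5 to 39.2), Tchh (29.5 to 35.4), Prr9 (25.6 to 35), Krt73 (15 to 16.5), Krt35 (14.8 to 16.4), Krt28 (11.5 to 13.9), S100a3 (5.06 to 5.93) and Krt72 (1.24 to 3.19). Tchh overlapped Prr9, and Krt73 overlapped Krt35. The other neighbours in the order stood apart in these 2 libraries. The annotated exons of S100a3 cover 5660 bases, which lowers its value on this scale.

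Outside the 6 libraries, Krt25, Krt27, Krt71 and Prr9 had 0 counts in all 40. Krt28, Krt72 and Krt73 had at most 2 counts in any of them. Krt35 reached 0.236 CPM, in Monocyte_IVIG 3. Tchh had at least 3 counts in 27 of the 40 libraries and at least 1 CPM in 14, up to 4.68 CPM in Blood_IVIG 2, so its 1.64 to 2.58 CPM in the 4 low libraries lay within the range of libraries without skin keratins. S100a3 had at least 3 counts in 22 of the 40 and reached 1.05 CPM in Monocyte_PBS 1, above its levels in the 4 low libraries.

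Further genes of the follicle were read from lists of genes by role, to show which other layers varied with the members. The other hair shaft keratins were on in the same libraries at a lower level: their sum was 34.5 CPM in Skin_IVIG 1 and 43.6 in Skin_IVIG 2, and 0.849 to 2.08 in the other 4. Of 10 with at least 1 CPM in any of the 6, 9 were higher in both than in all 4 others. Krt86 was at 11.8 and 14.6 CPM and had 0 counts in all 4 others, and Krt81 was at 6.41 and 4.96 CPM. Krt81, Krt83, Krt86 and Krt87 are close relatives in sequence, as are Krt31, Krt33a, Krt33b and Krt34, and how reads were split among them is uncertain. The keratin-associated protein genes (symbols starting with Krtap), which code the matrix proteins that embed shaft keratins, summed to 37.9 and 51.8 CPM against 1.01 to 2.85 CPM. Of 58 such genes, 24 reached 1 CPM in any library and 23 of these were higher in both Skin_IVIG 1 and Skin_IVIG 2.

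Other sheath genes divided. Of 11 at 1 CPM or more, 6 were higher in both libraries. Krt26, a type I keratin of the inner sheath, was at 13.7 and 24.1 CPM and at most 0.168 CPM elsewhere, and Padi3, the enzyme that deiminates trichohyalin, was at 13.1 and 11 CPM against 0.503 to 1.01 CPM (both appear again among the genes with the closest pattern). Krt75, a keratin of the companion layer (named after its values were seen), also shared the split, at 17.4 and 11.7 CPM against 0.157 to 2.58 CPM. Krt17, Krt16 and Krt6a, keratins of the outer sheath that also respond to injury, did not. Neither did Krt6b and Gata3 of the same list. Gata3 was at 44.9 CPM in Skin_IVIG 1 and 84.9 in Skin_IVIG 2 against 15.1 to 61.7 CPM. Krt17 was at 122 CPM in Skin_IVIG 1 and 200.8 in Skin_IVIG 2, but 217.6 in Skin_PBS 2, 114.4 in Blood_PBS 2, 38 in Skin_PBS 3 and 24.2 in Blood_IVIG 3. Krt16 and Krt6a, keratins of activated epidermis, were highest in Skin_PBS 2, at 35.1 and 28.9 CPM, against at most 5.86 and 12.4 CPM in the others.

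Regulators of the hair matrix were higher in part. Of 15 at 1 CPM or more, 9 were higher in both Skin_IVIG 1 and Skin_IVIG 2. Dlx3, a homeobox factor needed for shaft and sheath differentiation, was at 27.4 and 23 CPM against 1.02 to 4.46 CPM. The hedgehog pathway genes Gli1 and Ptch1 were at 40 and 12.2 CPM and at 48.1 and 24.7 CPM, with highest values of 6.39 and 23.1 CPM elsewhere. Shh, the hedgehog ligand of the growing matrix, was at 6.45 and 3.8 CPM against 0.031 to 0.335 CPM, and Hoxc13, a homeobox regulator of hair keratin genes, at 6.95 and 4.97 CPM against 0.189 to 1.07 CPM; both were named after their values were seen. Bmp4 did not share the split, at 12 and 12.3 CPM against 6.79 to 15 CPM. Neither did Msx1, Wnt10a, Wnt10b, Foxq1 and Ovol1 of the same list.

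Genes of the dermal papilla, the mesenchyme at the follicle base, summed to 82.6 CPM in Skin_IVIG 1 and 63.8 in Skin_IVIG 2 and to 32 to 50.2 CPM in the others, and 8 of 12 were higher in both. Crabp1 was at 10.5 and 10.8 CPM against 2.13 to 5.86 CPM, while Fgf7 was not higher, at 9.49 and 7.43 CPM against 7.64 to 19.3 CPM. Pigment genes had a clearer gap. Of 10 melanocyte genes, 8 were higher in both: Dct, an enzyme of melanin synthesis, was at 39.1 and 20.4 CPM against 2.43 to 5.87 CPM, and Pmel, the fibril protein of melanosomes, at 35.5 and 23.3 CPM against 2.55 to 4.72 CPM. Mitf, which macrophages and other cells also express, was at 39.9 and 24.8 CPM, within the 32.3 to 51.2 CPM of the rest or below.

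Cell cycle genes summed to 259.6 CPM in Skin_IVIG 1 and 147.5 in Skin_IVIG 2, against 119.5 in Blood_IVIG 3, 79.6 in Skin_PBS 2, 51 in Blood_PBS 2 and 45.6 in Skin_PBS 3. Of 10, 6 were higher in both libraries, among them Mki67 at 82.5 and 61.3 CPM against 16.9 to 41.7 CPM. Cdk1, at 25.7 and 14.7 CPM, was not, since Blood_IVIG 3 had 14.8 CPM. Genes of the bulge, where follicle stem cells reside through the cycle, had 4 of 9 higher and 1 lower in both. Krt15 was at 139.5 and 390.2 CPM against 63.9 to 280.3 CPM and Cd34, which vessels and fibroblasts also express, at 401.4 and 381.7 CPM against 355.7 to 709.1 CPM.

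The makeup of the 6 libraries differed in other tissues too. Of the 13 genes of the interfollicular epidermis, 2 were higher in both: the list summed to 3481 and 8073 CPM in Skin_IVIG 1 and Skin_IVIG 2 and to 1839 to 7114 CPM elsewhere, and Krt10 was at 1126 and 2374 CPM against 481.1 to 2248 CPM. Sebaceous gland genes summed to 8983 and 9236 CPM against 2267 to 8082 CPM, and 3 of 10 genes were higher in both. Most of this sum was Scd1, at 8642 and 8767 CPM against 2172 to 7755 CPM. The sum and Scd1 ordered the 6 libraries as the members did. Elovl4, the next highest gene of the list, did not, at 165 CPM in Skin_IVIG 1 and 191.6 in Blood_PBS 2. Fibroblast genes summed to 28140 and 36570 CPM against 14810 to 26130 CPM, and 4 of 8 were higher in both. Skeletal muscle genes ran from 44.3 CPM in Skin_PBS 2 to 25780 CPM in Blood_PBS 2, with 513.3 and 182.4 CPM in Skin_IVIG 1 and Skin_IVIG 2. In Skin_PBS 3 and Blood_IVIG 3 they summed to 5450 and 3156 CPM. Leukocyte genes summed to 1209 and 621.5 CPM against 802.1 to 1781 CPM, with Ly6g, which defines neutrophils, at 0 to 0.137 CPM. Adipocyte, endothelial and red cell genes had 1, 0 and 0 of 10, 5 and 5 genes higher in both. The part of these tissues in the hair follicle values was not tested.

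**Figure D3:**
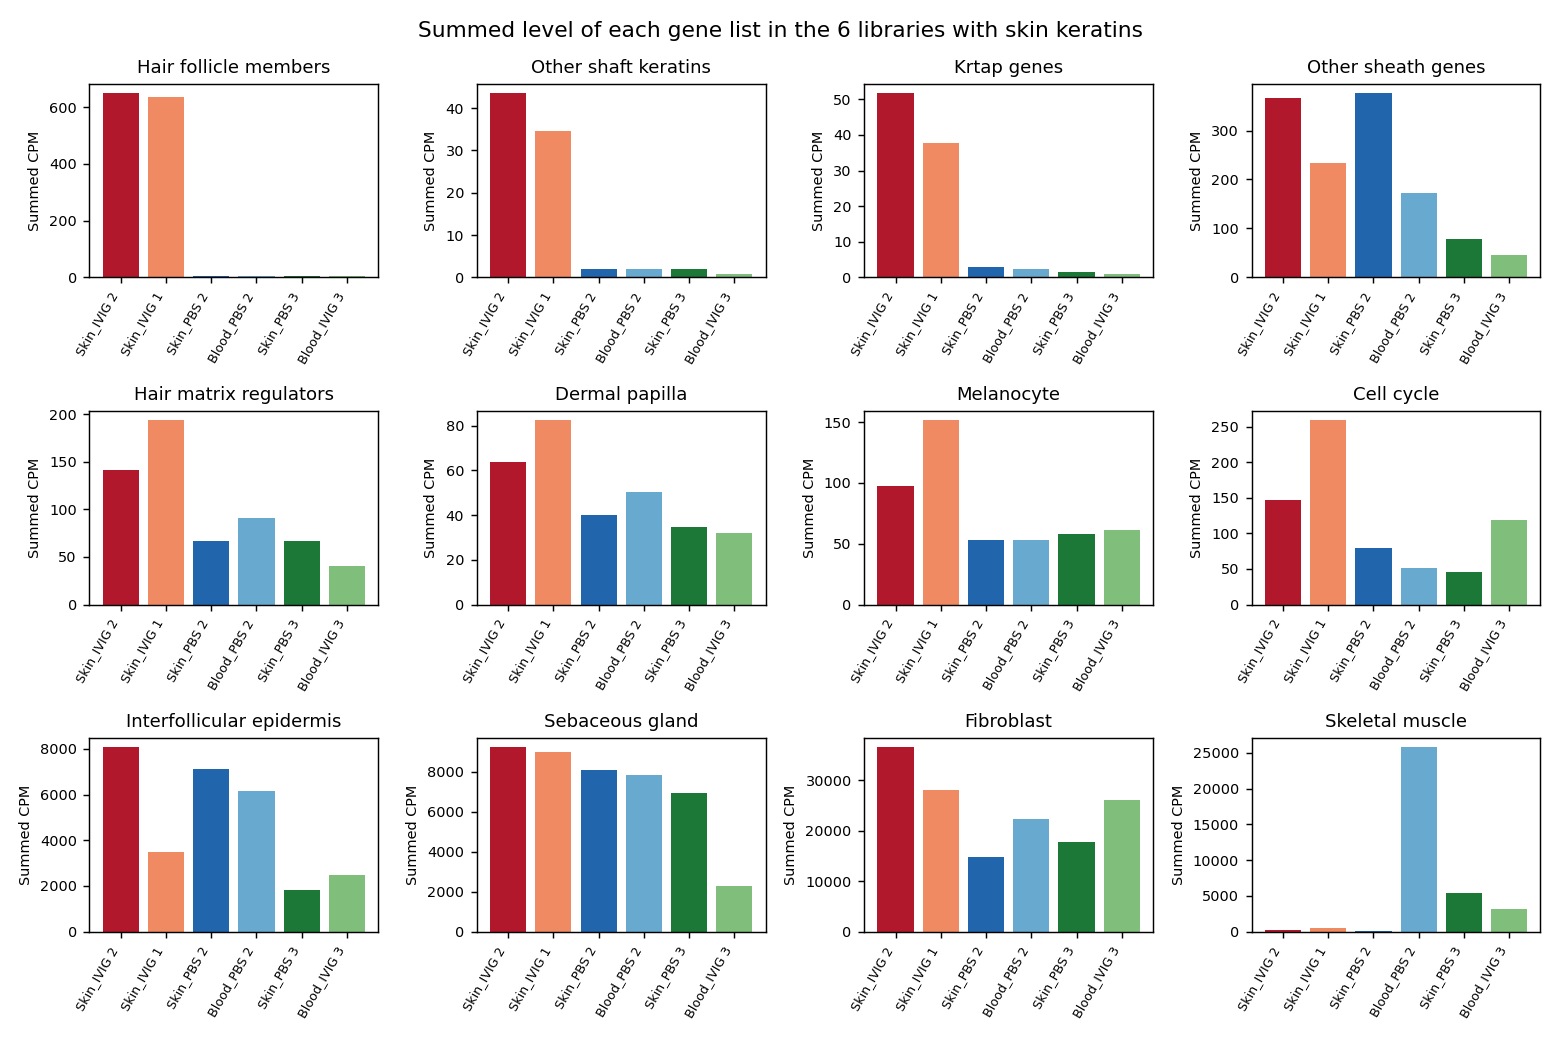
Summed CPM of each gene list (bars from 0, 1 bar per library, scale differing between panels) in the 6 libraries with skin keratins, ordered by the sum of the 10 hair follicle genes. The members, shaft keratins and Krtap genes are near 0 outside Skin_IVIG 1 and 2. Matrix, papilla, melanocyte, cell cycle and fibroblast genes are highest in these 2, and epidermis and muscle genes follow other orders. The sebaceous sum, mostly Scd1, follows the members' order with a smaller range (2267 to 9236 CPM).

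The genes with the pattern most like the members were taken by the Pearson correlation, over the 6 libraries, between log2(CPM + 1) of a gene and the mean of the members, among 1403 other genes with a mean of at least 1 CPM and a range of at least 2 log2 units. The 10 closest were Krt87 (0.9997), Calhm4 (0.9994), Krt86 (0.9993), Fbp1 (0.9978), Lyg2 (0.9977), Krtap17-1 (0.997), Krt81 (0.9965), Gm47969 (0.9963), Krt26 (0.9937) and Padi3 (0.9933). Of these, 6 are keratin, keratin-associated or trichohyalin-modifying genes. Fbp1, an enzyme of gluconeogenesis, was at 3.41 CPM in Skin_IVIG 1 and 2.98 in Skin_IVIG 2 and at most 0.13 CPM elsewhere. Calhm4, of a family of membrane channels, was at 4.29 and 3.97 CPM and at most 0.0335 CPM elsewhere, and Lyg2, a lysozyme-like gene, at 6.31 and 5.14 CPM with 0 in the other 4. Of the 1403 genes, 30 had a correlation over 0.95, and the lowest correlation was -0.909. By Spearman correlation 0 of these 10 were among the 10 closest, with 13 genes tied at the highest coefficient.

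By the deposited labels, the question is whether these genes differed between skin of mice given IVIG and PBS. Both libraries with high members were labelled skin with IVIG, and no library labelled PBS had high members. By the treatment field, 1 of these 2 libraries is PBS and 1 is IVIG. Skin_IVIG 3, the haemoglobin-rich library, had 0 members on, and so did Skin_PBS 1. The members were chosen with this contrast known, so what follows is a description. Over the 6 libraries labelled skin, 0 of 16171 genes (0%) passed in edgeR, with 157 at an unadjusted p under 0.05 and 1 gene by DESeq2. Of the 10 members, 4 passed the expression filter, which asks for more than a few counts in 3 libraries. The members left out had only a few counts outside the 2 libraries with high members. Tchh was at 5.94 ± 1.82 on the log2 scale (IVIG minus PBS, SE, n = 3 and 3, adjusted p = 1.00 in edgeR), Krt28 at 5.25 ± 1.4, S100a3 at 5.55 ± 1.33 and Prr9 at 5.56 ± 1.51, all with adjusted p = 1.00. S100a3 was the gene that DESeq2 called (adjusted p = 0.0265).

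Without the 2 haemoglobin-rich libraries, 2 libraries with IVIG and 2 with PBS remained. All 10 members were tested, and 4 genes of 16934 (0.0236%) passed in edgeR: Krt25 (adjusted p = 0.021), Krt28 (adjusted p = 0.0398), Krt71 (adjusted p = 0.0159) and Tchh (adjusted p = 0.0159), all higher with IVIG by label. These 4 genes are all members. The members untested over all libraries labelled skin, Krt25 and Krt71 among them, passed the filter here only through the 2 libraries where they were high. The rule used this contrast, so nothing is read from these calls. Tchh was at 6.25 ± 0.31 and Krt28 at 5.71 ± 0.379 (SE, n = 2 and 2, edgeR). The fitted change of Krt25 and Krt71 depends on a prior count, since the 2 PBS libraries held 3 and 2 counts of them in all. S100a3 was at 6.00 ± 0.643 (adjusted p = 0.152 in edgeR) and Prr9 at 6.00 ± 0.455 (adjusted p = 0.0552 in edgeR). Unadjusted p was under 0.05 for 1446 genes. Of the other lists, 0 genes passed. Unadjusted p was under 0.05, with the higher value in IVIG, for 8 of 10 tested shaft keratins and 8 of 16 matrix regulators. The same held for 8 of 10 melanocyte genes and 8 of 10 cell cycle genes, against 717 of all 16934 genes. Most of these shaft keratins passed the filter only through the 2 libraries where they were high. The lists were chosen with earlier results known, so nothing is read from these shares. Other cell types moved in the same comparison: by the same limit 4 of 8 fibroblast genes were higher with IVIG by label and 3 of 6 leukocyte genes lower, against 729 of all genes lower. Of 13 skeletal muscle genes, 0 had a higher fitted value with IVIG, with a median log2 change of -2.93, and 1 had an unadjusted p under 0.05. The part of these cell types in the members' values was not tested.

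Over the 6 libraries with skin keratins, taken by their condition label whatever their tissue label, the members did not separate the conditions. Skin_IVIG 1 and Skin_IVIG 2 were high, while Blood_IVIG 3 was as low as Skin_PBS 2, Skin_PBS 3 and Blood_PBS 2. In edgeR 0 of 16781 genes (0%) passed, with 587 at an unadjusted p under 0.05, and DESeq2 called 81 genes. Tchh was at 5.68 ± 1.46 (SE, n = 3 and 3, adjusted p = 0.999 in edgeR), Krt28 at 4.92 ± 1.42, S100a3 at 5.01 ± 1.43 and Prr9 at 5.58 ± 1.61, all with adjusted p = 0.999 in edgeR. DESeq2 called 3 of these 4, Krt28 (adjusted p = 0.00494), S100a3 (adjusted p = 0.00336) and Tchh (adjusted p = 0.0112). Without Blood_IVIG 3, edgeR called 8 of 17329 genes, of which 7 were members: Krt25, Krt27, Krt28, Krt35, Krt71, Prr9 and Tchh. Blood_IVIG 3 is the only IVIG-labelled library of these 6 with low members. Leaving it out restores the split on which the members are described, so nothing is read from these calls. Krt25, Krt27, Krt35 and Krt71 passed the filter of that fit only through the 2 libraries with high members.

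**Figure D4:**
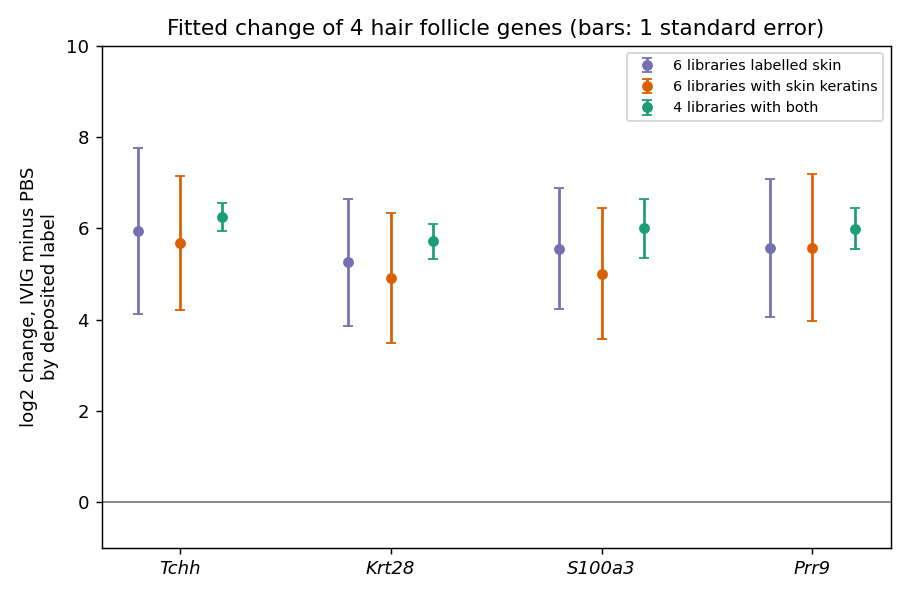
Fitted log2 change (IVIG minus PBS by deposited label, bars of 1 standard error) of the 4 members that passed the expression filter in every comparison, over the 6 libraries labelled skin, the 6 with skin keratins and the 4 that are both. The values lie between 4.92 and 6.25, and the standard errors are 1.33 to 1.82 with 6 libraries and 0.31 to 0.643 with 4.

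The direction by label rests on the deposited names. The columns of the table stand in the alphabetical order of names joined by a low line, while the sample descriptions join the same names with hyphens, which sort differently. If the values stood in the hyphen order, 29 of the 34 names of blood, cell and skin libraries would fall on other columns, 22 of them with the other condition, and 0 of the 12 Ics names would move. All 6 libraries with skin keratins would then be named skin, where 4 are as deposited. Skin_IVIG 1 and Skin_IVIG 2, the libraries with high members, would be named Skin_PBS 1 and Skin_PBS 2, and the 4 low libraries would be 3 named IVIG and 1 named PBS. No library was renamed and no comparison was run on such names. Which order holds was not tested. The on and off pattern of the 10 genes uses no label.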

How the data were processed

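Bulk RNA was sequenced from 46 libraries. Transcripts were quantified with kallisto 0.46.1 against GRCm38, per the submitters' processing notes. The authors deposited 1 table of estimated counts (expected counts, length-scaled TPM) for 46264 gene symbols. How transcripts were summed to genes is not given in the sources used here. Values were rounded to whole counts for the tests and for all counts and CPM given here. Before rounding, 43.52% of values were not whole, so a stated 0 can stand for a small estimate. CPM was taken from each library's total, without TMM.

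Groups came from the tissue and condition fields, since the treatment field disagrees with the condition in many libraries. The members and lists (16 lists, 158 of 159 genes in the table) were chosen with earlier results of these data known. From each list, up to 4 genes of highest mean CPM were named, and others after their values were seen. No 2 columns of the table were identical (0 pairs).

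Comparisons were fitted in edgeR 4.0.16 (R 4.3.3, quasi-likelihood, TMM, default expression filter). Genes passed at a p under 0.05 after Benjamini-Hochberg adjustment across the whole table tested. SE was the log2 change divided by the square root of F. The alternative tool was DESeq2 1.42.0. Others were totals alone, no filter, haemoglobin left out, tissue as covariate, other limits and each library left out. On simulated data with 200 genes changed 4-fold among those with means of 50 counts or more, edgeR recovered 95% for the 6 libraries labelled skin and 94.5% for the 6 with skin keratins. Of its calls there, 1.55% and 2.07% were false, against 9.86% and 5.42% for DESeq2. The simulated libraries shared the same mean profile, with a dispersion (spread between libraries) of 0.1. The real libraries differed in tissue content, so these shares do not give the power of the fits on them.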

Additional observations from a re-analysis of the deposited data

Results flagged for a closer look

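S100a3 was at 1.05 CPM in Monocyte_PBS 1 and at 0 CPM in the other 4 libraries of that group, a gap that fills the whole range of 5 values. With 4 values at 0, any single value above 0 fills the range in this way.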

How the results depend on the processing

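Over the libraries labelled skin, the count of genes past the limit was 0 in edgeR, 1 by DESeq2 and 4 in the 4 libraries with skin keratins, and 0 to 0 when each library was left out. Over the 6 libraries with skin keratins it was 0 in edgeR, 81 by DESeq2, and 0 to 8 when each library was left out, with 8 without Blood_IVIG 3. Totals alone, no filter and haemoglobin left out gave 0 in both, as did tissue as covariate in the second. The number of libraries with at least 9 members on was 2 at each limit, and 1 to 2 when each library was left out. The highest to lowest sum was 209-fold, 299.5-fold relative to Krt5 and Krt14, and 180.5 to 209 when each library was left out. Of the 10 closest genes, 0 were shared by Spearman correlation and 5 to 9 when each library was left out. The cause of these changes was not tested. No paired analysis was possible because the skin groups share no title number that may stand for an animal. Counts of 0 to 9 in the low libraries limit the ratios of the sheath keratins other than Krt28, and of Krt35.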
